A study of Homo sapiens with 35 samples.

Results

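The chemokine ligand genes were taken as all protein-coding genes whose symbol is CCL, CXCL, XCL or CX3CL followed by a number, with or without an L suffix. The rule found 45 genes, of which 43 have a position on a chromosome, among 19839 protein-coding genes on chromosomes 1 to 22 and X. CCL3L1 and CCL4L1 are listed on other scaffolds and were not analysed here. Accessible DNA was mapped by ATAC-seq, which cuts and tags open chromatin with a transposase, in blood progenitor cells differentiated from H1, which is an established line of human embryonic stem cells. The 35 labelled libraries comprise 12 doxycycline-treated and 11 untreated cultures of a line named doxee17 (batch 1) and 12 untreated h1 cultures (batch 2), at 6 time points from day 10 to day 20, and doxycycline switches on ectopic MYC per the series' design text. That text counts 44 libraries. Whether the h1 cultures carry the inducible construct is not given in the sources used here, and nothing says which libraries came from separate differentiations.

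A single combined peak set was deposited for the series. Its values belong to no library, so treatments, days, lines and batches could not be compared, no replicate error exists, and every statement below describes this peak set with no test. Each peak has a fold enrichment, the signal at its summit divided by the caller's background. The 308145 peaks on these chromosomes had a median of 3.46-fold (quartiles 2.12 and 8.59), and no depth per library can be read from it. The fold and p of the peaks imply a background of 93.5 stacked reads or fragments, from which exact Poisson 95% intervals were drawn. They cover counting error only. In a pool, a strong site in few cells and a weaker site in many cells cannot be told apart. The labelled cell type was checked on 8 progenitor markers, of which 6 (75% against 83.4% of all protein-coding genes) showed a peak summit at most 1 kb from an end, from 3.93-fold at SPN to 80.9-fold at RUNX1. The marker median of 22.8-fold was below that of all genes (44.6), so these values do not set the markers apart. The other 2, TAL1 and GATA2, were wholly covered by peaks of 105-fold and 54.9-fold, and CD34, with 14.8-fold at an end, had 37.6 distal peaks per 100 kb.

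Chemokines are small secreted proteins that guide migrating leukocytes along concentration gradients by binding G protein-coupled receptors. They are named for the spacing of their first cysteines (CC, CXC, CX3C, or a single cysteine in the C group). Many are inflammatory: their genes stay nearly silent until NF-kappaB, AP-1 or interferon-activated factors are induced. Others are made constitutively and place cells in tissues, as CXCL12 does for blood stem cells in bone marrow. Platelet precursors store several CXC chemokines in granules. Most human inflammatory chemokine genes lie in clusters on chromosomes 4 (CXC) and 17 (CC), which arose by gene duplication.

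Promoter sequences are shown for some genes of the chromosome 4 and 17 clusters with at least 20-fold at an end. Beside them are some genes of the same chromosomes with under 5-fold. The choice was made by hand, and CXCL5 and CXCL6, which also reached 20-fold, are not shown. Of the genes shown, only CXCL2 and CXCL3 exceeded the median of all protein-coding genes, 44.6-fold. Each is the 250 bases before the listed start on GRCh38.p14, from RefSeq, 5′ to 3′. Capitals mark TATAAA, the AP-1 motif TGANTCA, the interferon response motif (GAAANN followed at once by GAAA), the NF-kappaB consensus site, and the looser letters GGNNNTTCC, which overlap that consensus; all were searched on both strands. The looser letters were added after the CXCL8 sequence had been seen. CXCL1, CXCL2, CXCL3 and CXCL8 are from the CXCL1 to CXCL8 cluster of chromosome 4, and CXCL10, an interferon-induced gene of the same chromosome, is the contrast with weak peaks.
CXCL1 (chr4:73869143-73869392, plus strand): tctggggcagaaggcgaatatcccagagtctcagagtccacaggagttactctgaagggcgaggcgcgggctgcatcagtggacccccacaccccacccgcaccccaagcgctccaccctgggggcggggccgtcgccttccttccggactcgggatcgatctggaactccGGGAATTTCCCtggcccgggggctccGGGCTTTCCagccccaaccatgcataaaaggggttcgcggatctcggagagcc
CXCL2 (chr4:74099196-74099445, minus strand): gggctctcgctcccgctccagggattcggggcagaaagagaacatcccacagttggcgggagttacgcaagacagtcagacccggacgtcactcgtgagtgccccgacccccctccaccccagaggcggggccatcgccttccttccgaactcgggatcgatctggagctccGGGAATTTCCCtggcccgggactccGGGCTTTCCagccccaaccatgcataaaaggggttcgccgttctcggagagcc
CXCL3 (chr4:74038690-74038939, minus strand): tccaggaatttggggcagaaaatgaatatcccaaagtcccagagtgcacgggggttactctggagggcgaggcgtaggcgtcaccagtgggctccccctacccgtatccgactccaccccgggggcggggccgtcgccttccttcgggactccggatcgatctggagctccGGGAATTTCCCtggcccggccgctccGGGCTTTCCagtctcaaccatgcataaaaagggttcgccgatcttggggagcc
CXCL8 (chr4:73740319-73740568, plus strand): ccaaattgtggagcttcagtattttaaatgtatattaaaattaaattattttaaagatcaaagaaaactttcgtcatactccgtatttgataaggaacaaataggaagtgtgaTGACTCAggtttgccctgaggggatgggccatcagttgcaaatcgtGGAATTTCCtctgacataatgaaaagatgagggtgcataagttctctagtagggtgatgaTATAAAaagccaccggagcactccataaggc
CXCL10 (chr4:76023498-76023747, minus strand): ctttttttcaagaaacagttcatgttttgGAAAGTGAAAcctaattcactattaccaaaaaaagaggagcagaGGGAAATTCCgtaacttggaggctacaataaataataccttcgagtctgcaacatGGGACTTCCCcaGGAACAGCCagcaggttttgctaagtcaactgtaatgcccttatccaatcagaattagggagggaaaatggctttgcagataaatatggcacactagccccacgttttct

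CXCL1, CXCL2 and CXCL3 share the element GGGAATTTCCC and, nearer to the start, GGGCTTTCC. CXCL8 holds the AP-1 match TGACTCA, the letters GGAATTTCC and a TATA box. In CXCL1, CXCL2 and CXCL3 the NF-kappaB match began at -79, -78 and -79 bp (negative positions lie before the start), and their peak summits lay at -42, -42 and -41 bp. These 3 promoters are related: 81.4% of aligned positions were identical between CXCL1 and CXCL3, 73.3% between CXCL2 and CXCL3 and 70.4% between CXCL1 and CXCL2, so they are not independent examples. CXCL10 holds 1 interferon response match, at -221 bp, and 2 NF-kappaB matches.

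From chromosome 17, CCL3 and its copy CCL3L3 show how alike duplicated genes are, and CCL13 is a gene of that chromosome with a weak peak.
CCL3 (chr17:36090144-36090393, minus strand): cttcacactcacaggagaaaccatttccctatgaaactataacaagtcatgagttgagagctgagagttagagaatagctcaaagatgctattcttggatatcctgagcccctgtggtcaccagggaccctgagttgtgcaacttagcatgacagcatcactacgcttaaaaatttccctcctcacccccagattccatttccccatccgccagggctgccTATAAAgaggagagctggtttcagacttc
CCL3L3 (chr17:36196759-36197008, minus strand): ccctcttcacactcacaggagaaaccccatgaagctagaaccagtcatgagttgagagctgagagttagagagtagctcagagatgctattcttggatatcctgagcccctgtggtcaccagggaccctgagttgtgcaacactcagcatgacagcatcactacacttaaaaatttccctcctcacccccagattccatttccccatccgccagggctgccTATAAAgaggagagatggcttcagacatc
CCL13 (chr17:34356230-34356479, plus strand): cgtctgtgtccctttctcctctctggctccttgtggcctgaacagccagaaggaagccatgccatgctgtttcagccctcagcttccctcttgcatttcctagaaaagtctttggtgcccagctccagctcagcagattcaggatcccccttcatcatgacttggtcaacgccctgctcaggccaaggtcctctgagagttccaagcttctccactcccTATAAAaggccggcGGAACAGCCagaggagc

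The CCL3 and CCL3L3 sequences were 91.0% identical over their alignment, with 233 identical bases, 11 mismatches and 12 gap positions. Reads from such copies are hard to assign, and how the deposited processing treated reads with several matches is not given in the sources used here. The fold values of CCL3 and CCL3L3, and of CCL4 and its copy CCL4L2, whose promoters were not compared, are therefore uncertain in their split. All 3 of these chromosome 17 promoters hold a TATA box, beginning at -29 bp in CCL3 and CCL3L3 and at -31 bp in CCL13.

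Of the 43 placed genes, 35 had a peak summit within 1 kb of an end, a share of 81.4% against 83.4% of all protein-coding genes. Having a peak thus did not set the family apart. The peaks were lower than those of most genes: the median of the highest fold at an end, counting 0 where there was none, was 7.40 for chemokine ligand genes (quartiles 1.90 and 24.4) and 44.6 for all genes (quartiles 3.82 and 112). Only CXCL2, CXCL3 and CXCL16 (6.98%) exceeded the median of all genes, which 50.0% of all genes do by definition. At least 20-fold was reached by 14 of the 43, that is 32.6%, against 59.8% of all genes.

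Base composition was set beside the low values. The promoter table holds 36 windows for 31 of the 43 genes, each from 250 bases before to 50 after a listed start, with a median GC content of 49.0% against 62.3% over 22156 windows of all protein-coding genes. Their median ratio of observed to expected CpG was 0.203, against 0.738. Among the 3959 genes with the lowest promoter GC content (the lowest 25%, up to 54.3%), the median fold at an end was 3.62, and for the 21 chemokine ligand genes below that bound it was 3.51. Among genes of at most 10 kb the medians were 13.9 for all 5577 and 11.0 for the 34 chemokine ligand genes. CXCL2 (65.0% GC) and CXCL3 (64.3% GC), the members with the highest folds, lay above the median GC content of all windows, as did CXCL1 (66.3%), yet CXCL12 had 77% GC and only 8.01-fold at an end. Of the members whose promoter windows lie above 54.3% GC, only CXCL2 and CXCL3 exceeded the 44.6-fold median of all genes. CXCL14 (65.0% GC) had 18.8-fold and CCL25 (62.7%) 3.95-fold at an end, whereas CXCL8 (39.3%) had 35.5-fold. The part of base composition in the low values was not tested.

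**Figure D1:**
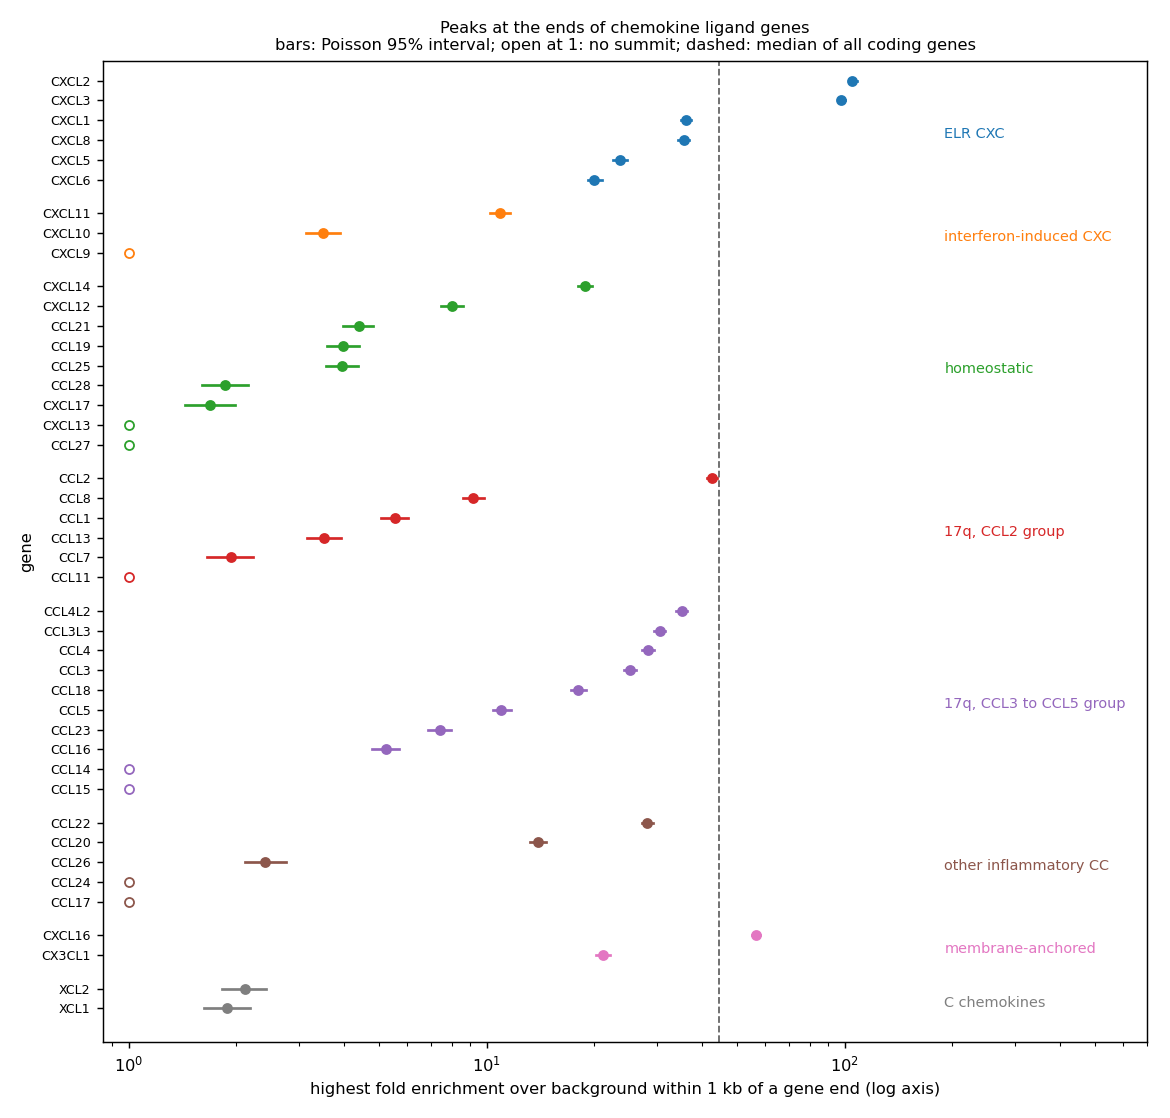
Highest fold enrichment (log axis) of a peak with its summit within 1 kb of a gene end, for each of the 43 genes grouped by role; bars are Poisson 95% intervals for counting error, open symbols at 1 are genes without such a summit, and the dashed line is the median of all protein-coding genes (44.6). All 6 ELR CXC genes and both membrane-anchored genes lie at 20-fold or higher, the C chemokines stay near 2-fold, and the CC groups spread widely.

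TATA boxes were frequent. TATAAA occurred in 41.7% of the 36 chemokine ligand windows and in 9.46% of all 22156 windows; 14 of the 31 genes had it, and in CCL3, CCL7, CCL8, CCL13, CCL15, CCL18, CCL20, CCL25, CCL3L3 and CXCL8 it began between -31 and -29 bp. The AP-1 motif TGANTCA occurred in 22.2% against 6.16%, and the RUNX letters TGTGGT in 27.8% against 11.3%. The NF-kappaB consensus was matched in 27.8% against 12.7%, among them 5 of the 6 ELR CXC genes, and GGNNNTTCC in 36.1% against 21.3%. For GATAAG the shares were 11.1% and 5.43%, and for the PU.1 core GAGGAA 38.9% and 27.9%. The interferon response motif was in 5.56% against 3.17%, in CXCL9 and CXCL10, and the C/EBP motif TTGCNNCAA in 2.78% against 1.68%. The E-box CACGTG, the letters that MYC and MAX bind, was in 1 window of CCL3 alone, 2.78% against 8.34%. Windows of related genes, and several windows of a gene, share sequence, so these shares are descriptions of few independent promoters. The chemokine ligand windows also differ in composition from all windows (median GC 49.0% against 62.3%, CpG ratio 0.203 against 0.738). The shares were not set against windows of like composition, so its part in them was not tested.

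Neutrophil-attracting CXC chemokines carry a glutamate, leucine and arginine (ELR) motif before their first cysteine and bind CXCR1 and CXCR2. All 6 of these genes (CXCL1, CXCL2, CXCL3, CXCL5, CXCL6 and CXCL8) had a summit within 300 bp of their listed start, as did 70.0% of all genes in the promoter table. Their median of 35.8-fold at an end was the highest of any role with more than 2 genes. CXCL2 had a peak of 105-fold (95% interval 103 to 108), built on about 9969 stacked reads or fragments. CXCL3 had 98.0-fold (96.0 to 99.98), so the 2 genes differed by more than counting error but by little. CXCL1 had 36.1-fold (34.9 to 37.3) and CXCL8, which encodes interleukin-8, 35.5-fold (34.3 to 36.7). These intervals overlap, while CXCL2 and CXCL3 stood well above both. CXCL5 reached 23.6-fold (22.6 to 24.6) with its summit 112 bp before the start. CXCL6 reached 20-fold (19.2 to 21.0) with its summit 260 bp after the start.

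Peaks over these genes were also wide. A single peak covered the whole of CXCL1 (5621 bp wide), CXCL2 (8488 bp), CXCL3 (5952 bp) and CXCL8 (6670 bp), whereas 71.1% of CXCL6 and 23.8% of CXCL5 lay under peaks. On chromosome 17 the same held for CCL2 (4765 bp), CCL3 (3936 bp), CCL4 (3782 bp), CCL3L3 (3699 bp) and CCL4L2 (3870 bp). In all, 9 of 43 genes (20.9%) were wholly under peaks, against 2.47% of all protein-coding genes. Chemokine ligand genes are short (median 3230 bp, against 24460 bp), and short genes are more easily covered. Of all genes of at most 10 kb, 8.64% were wholly covered. Among genes of at most 2.2 kb, a bound chosen after the lengths had been seen, 8 of 15 chemokine ligand genes (53.3%) and 19.7% of 1357 genes in all were wholly covered. All 9 belong to the chromosome 4 and 17 clusters.

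**Figure D2:**
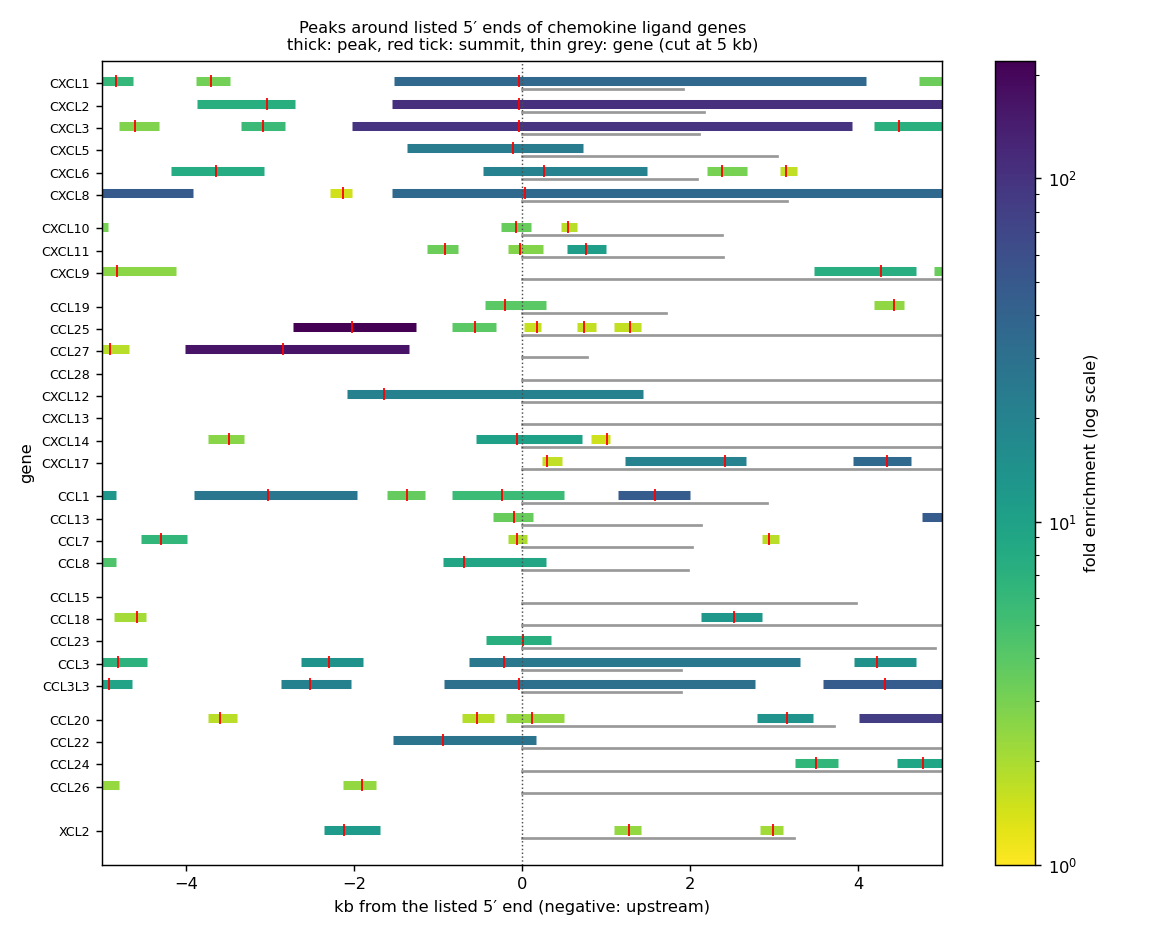
Peaks within 5 kb of the outermost listed 5′ end of the 31 genes in the promoter table, in kb with upstream negative; thick bars are peaks shaded by fold enrichment on a log scale, red ticks are summits and thin grey lines are the genes. Wide dark bars run over CXCL1, CXCL2, CXCL3, CXCL8, CCL3 and CCL3L3 from before the start to past the end of the gene, while the peaks over the starts of CXCL10, CXCL11, CCL7, CCL13 and CCL20 are short and pale.

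Summits gathered at starts in the way they did for other genes. Of the 31 genes in the promoter table, 23 (74.2%) had a summit within 1 kb of a listed start, against 81.7% of 15813 genes, and 21 (67.7%) had it within 300 bp, against 70.0%. Some of these were close to the limit of the list: the peak at the start of CCL7 was 1.93-fold (1.66 to 2.23), that of CXCL17 1.69-fold (1.44 to 1.98) and that of CCL25 1.60-fold. In contrast, CCL24, an eosinophil attractant with no summit at an end of its annotated gene, had a 16.7-fold peak at -66 bp from a listed start inside it. CCL28, a mucosal chemokine, had a 23.8-fold peak within 300 bp of a listed start, while its highest summit at a gene end was 1.86-fold.

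The chromosome 4 cluster of CXCL8, CXCL6, CXCL1, CXCL5, CXCL3 and CXCL2, with 50 kb on each side (chr4:73690569-74149195), held 101 peaks. That is 22 per 100 kb, and 24.6% of the sequence lay under them. All protein-coding genes taken with the same flanks had medians of 16.9 peaks per 100 kb and 13% (upper quartiles 23.9 and 23%). The cluster's coverage exceeded that of 77.9% of genes and its density that of 68.9%. Of its 101 peaks, 91 were distal, meaning that their summits lay over 1 kb from every coding gene end. Of these 91, 9 reached 20-fold, a share near the 9.12% of all distal peaks. Under 5-fold were 50 of the 91. The median of the 91 was 4.45-fold, against 3.31-fold for all distal peaks, most of which are thus also under 5-fold.

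Distal peaks were unevenly placed in this cluster. The 50 kb before CXCL8 held 19 peaks over 42.1% of the sequence, with summits of 56.9-fold at 35.8 kb, 37.8-fold at 10.8 kb and 48.4-fold at 5.11 kb before the gene. The 93.0 kb between CXCL8 and CXCL6 held only 13 peaks, none above 17.8-fold, over 11.9%. The highest distal peak of the cluster, 59.4-fold and 1663 bp wide (chr4:73847165-73848827), lay between CXCL6 and CXCL1, 8.96 kb from CXCL6 and 5580 bp from an end of PF4V1. Between CXCL3 and CXCL2 were distal peaks of 34.5-fold, 18.5 kb from CXCL3, and 36-fold, 17.8 kb from CXCL2. A peak of 35.4-fold lay past CXCL2 inside the neighbour MTHFD2L, a mitochondrial folate enzyme gene.

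The same cluster holds 3 platelet chemokine genes that the symbol rule leaves out. PF4 (platelet factor 4, also called CXCL4) lay wholly under a 28.3-fold peak of 7502 bp. PPBP, whose product is cut to the neutrophil attractant CXCL7, had 32.9-fold with the summit 11 bp from a gene end. PF4V1, a copy of PF4, had 16.8-fold with the summit 3 bp from an end. These values fall within or just below the 20 to 105-fold of the ELR CXC genes beside them. Of the megakaryocyte markers, 5 of 5 had a summit at an end (83.4% of all genes do), from 12.1-fold at GP9 to 113-fold at ITGA2B, with PF4 and PPBP among the 5. Their median of 32.9-fold was below the 44.6 of all genes, and the part of such cells in the peaks of the cluster was not tested.

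**Figure D3:**
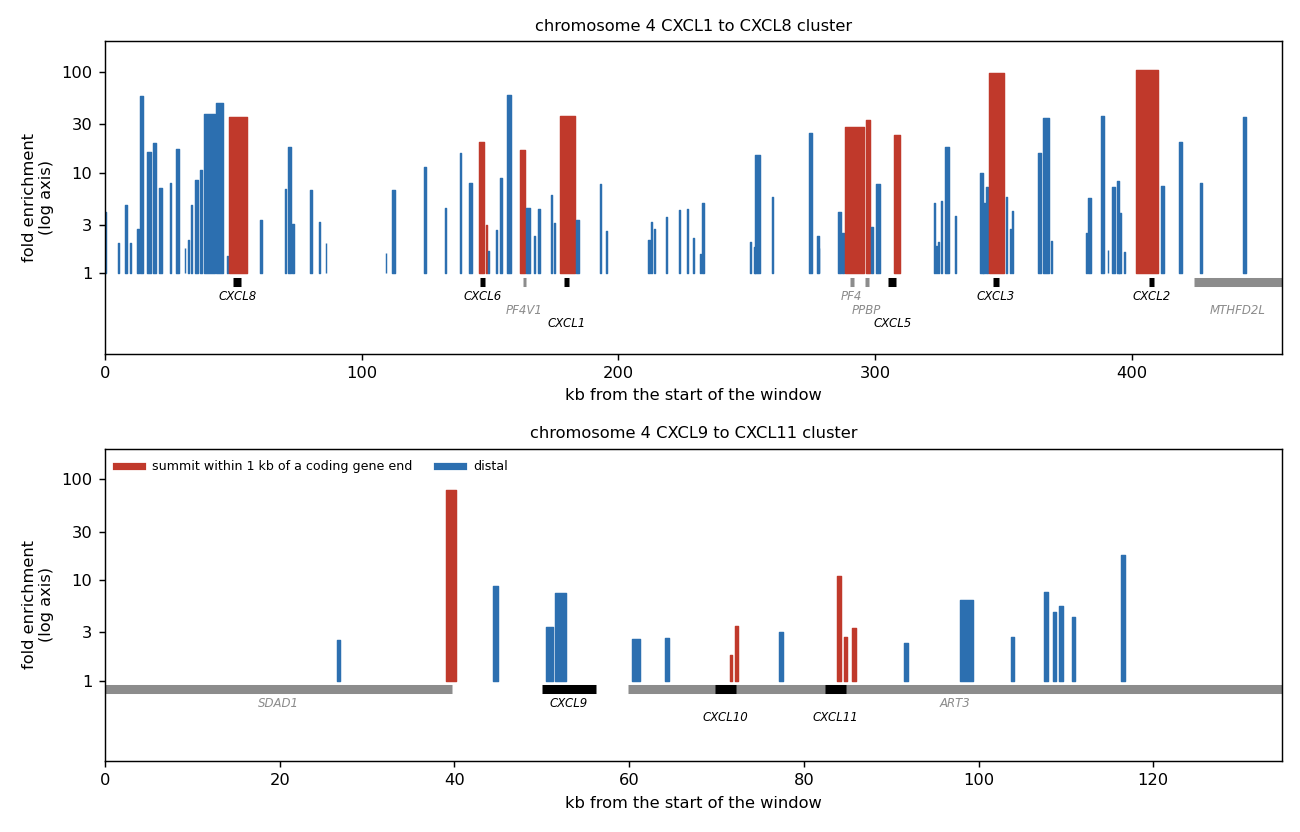
Peaks of the 2 clusters on chromosome 4, drawn at their true width against the distance in kb from the start of each window, with fold enrichment on a log axis; red peaks have a summit within 1 kb of a coding gene end, blue ones are distal, black bars are chemokine ligand genes and grey bars other coding genes. Tall wide peaks sit on the CXCL1 to CXCL8 genes and on PF4 and PPBP, whereas peaks on CXCL9, CXCL10 and CXCL11 stay at or below 10.9-fold.

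CXCL9, CXCL10 and CXCL11, which recruit activated T and NK cells through CXCR3 after interferon exposure, lie farther along chromosome 4. CXCL11 had 10.9-fold (10.2 to 11.6), with the summit 761 bp inside the gene, and 2.70-fold within 300 bp of its start. CXCL10 had 3.49-fold (3.13 to 3.89), at -79 bp. CXCL9 had no summit at an end, and its highest peak, 7.42-fold, lay 4272 bp from its start. Their window (chr4:75951275-76086070) held 21 peaks, 15.6 per 100 kb over 8.96% of the sequence, below the medians of all genes (16.9 and 13%). Without flanks the direction turned: from CXCL9 to CXCL11 there were 23 peaks per 100 kb over 14.7%, above the medians of genes without flanks (14.6 and 12.7%). Its highest peak, 77.0-fold, was at the end of SDAD1, and no distal peak exceeded 17.8-fold. CXCL13, a B cell attractant farther along, had no summit at an end and the lowest distal density of the family, 4 per 100 kb.

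On chromosome 17 the monocyte chemoattractant cluster (CCL2, CCL7, CCL11, CCL8, CCL13 and CCL1) had its strongest peaks at its ends, around CCL2 and around CCL1. CCL2, the main attractant of monocytes through CCR2, had a 42.6-fold peak (41.3 to 44.0) with the summit 89 bp outside its lower-coordinate end. Before that end lay a run of strong distal peaks: 70.2-fold at 3.02 kb (chr17:34250976-34253663), 18.7-fold at 6.39 kb, 48.4-fold at 8.65 kb, 36.7-fold at 12.4 kb and 25.4-fold at 18.6 kb. The 50 kb before CCL2 held 22 peaks over 47.9% of the sequence. CCL2 had the highest distal density of the 43 genes, 28.5 per 100 kb.

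At their own ends the neighbours of CCL2 had lower values. CCL8 had 9.19-fold, CCL1 5.54-fold, CCL13 3.51-fold and CCL7 1.93-fold at an end, and CCL11 (eotaxin, an eosinophil attractant) had no peak at an end or over the gene. Inside CCL1, a T cell product that binds CCR8, lay a distal peak of 46.8-fold, 1573 bp from the start, and 3 more of at least 20-fold lay within 50 kb upstream of the gene. From CCL2 to CCL1 only 11.4% of the sequence lay under peaks, against 24.8% with 50 kb of flank on each side and a median of 12.7% for genes without flanks. The high coverage of this window therefore came from its flanks. The 35.1 kb between CCL8 and CCL13 held 2 peaks, the higher of 3.51-fold, over 1.88%.

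The second chromosome 17 cluster runs from CCL5 to CCL4L2 and holds the macrophage inflammatory proteins CCL3 and CCL4, attractants of monocytes and T cells. CCL4L2 had 35.1-fold (33.9 to 36.3), CCL3L3 30.5-fold (29.4 to 31.6), CCL4 28.2-fold (27.2 to 29.3) and CCL3 25.2-fold (24.2 to 26.2). The L copies were thus higher than their partners by more than counting error, with the limit on copies given above. Copy number is not corrected in these values or in those of the distal peaks beside these genes, and its part was not tested. The sequence from CCL3 to CCL4L2 had 27.3 peaks per 100 kb and 27.8% under peaks. Distal peaks lay at like distances beside CCL3 and CCL3L3 but were lower at CCL3. On the 3′ side these were 14.6-fold at 2.34 kb from CCL3 and 46.6-fold at 2.42 kb from CCL3L3, and on the 5′ side 14.4-fold at 2.31 kb and 21.1-fold at 2.52 kb. A 41.8-fold peak lay farther out, 5.31 kb from CCL3. The highest peak of the window, 108-fold, was at an end of the neighbour LOC128966684.

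Between CCL16 and CCL18 that cluster was sparse, and around CCL5 the coverage was also below the median of all genes. CCL5 (RANTES), a product of T cells and platelets, had 11.0-fold at its lower-coordinate end and 9.99-fold at the other. Its 11.9 distal peaks per 100 kb lay below the median of all genes (14.1) but inside the quartiles. From CCL5 to CCL16 there were 15.6 peaks per 100 kb over 8.87% of the sequence. In the 50 kb before CCL5, 6.11% lay under peaks. The median coverage of all genes was 13% with 50 kb flanks and 12.7% without. The liver and myeloid chemokine genes CCL16, CCL14, CCL15 and CCL23 span 41.5 kb with 4 peaks over 2.92% of the sequence. CCL14 and CCL15 had no peak at an end or over the gene, CCL16 had 5.23-fold outside the gene, and CCL23 had 7.40-fold with its summit 4 bp from the start. CCL18 had 18-fold at 660 bp past its 3′ end and none within 300 bp of its start. The window as a whole (chr17:35821491-36262873) held 78 peaks, 17.7 per 100 kb over 14%, close to the medians of all genes (16.9 and 13%).

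**Figure D4:**
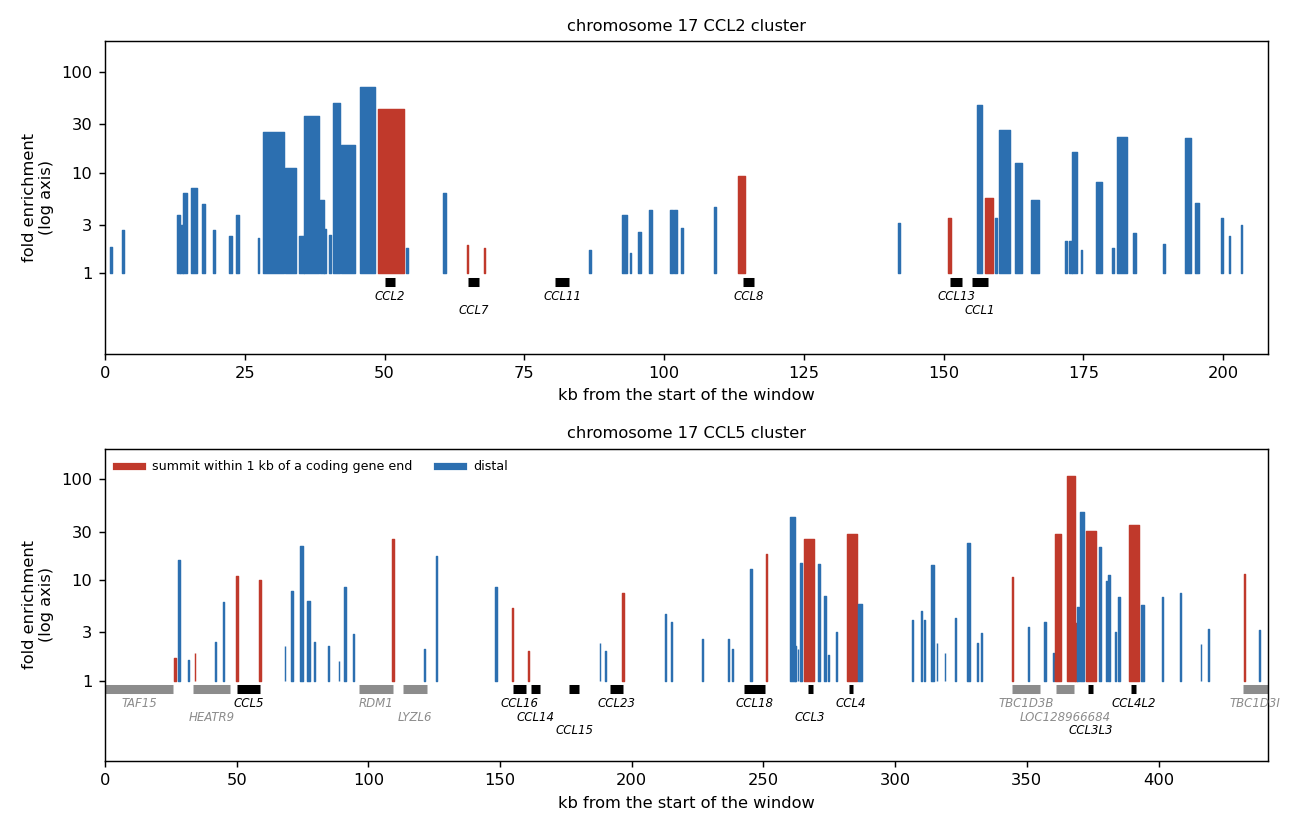
Peaks of the 2 clusters on chromosome 17, drawn as for chromosome 4, with fold enrichment on a log axis against kb from the start of each window. Strong peaks crowd to the left of CCL2 and to the right of CCL1 with few between CCL7 and CCL13, and in the CCL5 window they gather around CCL3, CCL4, CCL3L3 and CCL4L2 while CCL16 to CCL23 hold almost none.

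Outside these clusters 14 of 18 genes (77.8%, against 83.4% of all genes) had a summit at an end, with a median of 3.18-fold. Well above that median were CXCL16, CCL22, CX3CL1, CXCL14 and CCL20, each above the upper quartile of these 18 genes (12.4-fold). The membrane-anchored CXCL16, made by antigen-presenting cells, had 56.6-fold (55.1 to 58.2), but the summit also lies within 1 kb of an end of MED11, a Mediator subunit gene. CX3CL1 (fractalkine), the other membrane-anchored one, had 21.1-fold and 4 summits at its ends. CCL22, which lies beside it on chromosome 16 and attracts T cells through CCR4, had 28.1-fold with the summit at -945 bp from a listed start. CCL17, which binds the same receptor, had no summit within 1 kb of an end, but a 45.5-fold peak with its summit 1.10 kb outside the gene reached into it.

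Among the other inflammatory CC genes, CCL20, which binds CCR6, had 13.9-fold, 3145 bp from its start, and only 2.33-fold within 300 bp of the start. An 85.0-fold distal peak lay 1.38 kb past CCL20, and the gene had 22.2 distal peaks per 100 kb. The eosinophil attractants CCL24 and CCL26 had 27.5 and 22.1 distal peaks per 100 kb, though CCL26 had only 2.41-fold at an end. The C chemokines XCL1 and XCL2, products of NK and activated T cells, had 1.88-fold and 2.11-fold. Their intervals (1.62 to 2.18 and 1.82 to 2.42) overlap, and both values are below the median peak.

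Among homeostatic chemokine genes 7 of 9 (77.8%, against 83.4% of all genes) had an end peak, with 3.95-fold as the median over all 9. CXCL14 was highest at 18.8-fold, 8665 bp from its start and thus at the 3′ end, with 10.1-fold within 300 bp of the start. CXCL12, the ligand of CXCR4, had 8.01-fold near its 3′ end; a 21.0-fold peak covered its start with the summit at -1642 bp. CCL19 and CCL21, ligands of CCR7 in lymph nodes, had 3.98-fold and 4.39-fold, and their neighbour CCL27, a skin chemokine, had no peak at an end or over the gene. A 164-fold peak did lie at -2854 bp from the start of CCL27, but its summit is within 1 kb of an end of another coding gene. It was therefore not counted as distal, and the highest distal peak of CCL27 was 43.6-fold. CCL25, a gut and thymus chemokine, had 3.95-fold at an end, with a distal peak of 219.7-fold 1.61 kb outside the gene. Inside CCL28 lay a 65.2-fold peak 7231 bp from a listed start, and inside CXCL17 a 35.3-fold peak 4344 bp from its start.

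In all, 38 of 43 genes (88.4%) were overlapped by a peak, against 91.9% of all genes. The 5 without one were CCL11, CCL14, CCL15, CCL16 and CCL27. The 8 without a summit at an end were CXCL9, CXCL13, CCL24, CCL27, CCL17, CCL11, CCL14 and CCL15.

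Distal peaks were somewhat denser around the family than around most genes. The median was 16.6 per 100 kb within 50 kb of the gene, against 14.1 for all genes (quartiles 8.66 and 19.9), and 14 of 43 genes (32.6%) exceeded the upper quartile, which 25% of all genes do. Neighbouring members share these peaks: 459 distinct distal peaks were counted 756 times, 205 of them for more than 1 gene and some for 5. Of the 459, 61 (13.3%) reached 20-fold, against 9.12% of all 286673 distal peaks. The 10 densest genes were CCL2 (28.5), CCL24 (27.5), CCL7 (26.5), CXCL8 (25.2), CXCL3 (24.5), CCL13 (23.5), CXCL16 (22.6), CCL20 (22.2), CCL26 (22.1) and CCL25 (21.8). CCL7 and CCL13 are on this list with weak peaks of their own, since the sequence around them includes the flanks of CCL2 and CCL1. The lowest values after CXCL13 were 4.76 at CCL16, 5.77 at CCL15 and 6.77 at CCL14.

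**Figure D5:**
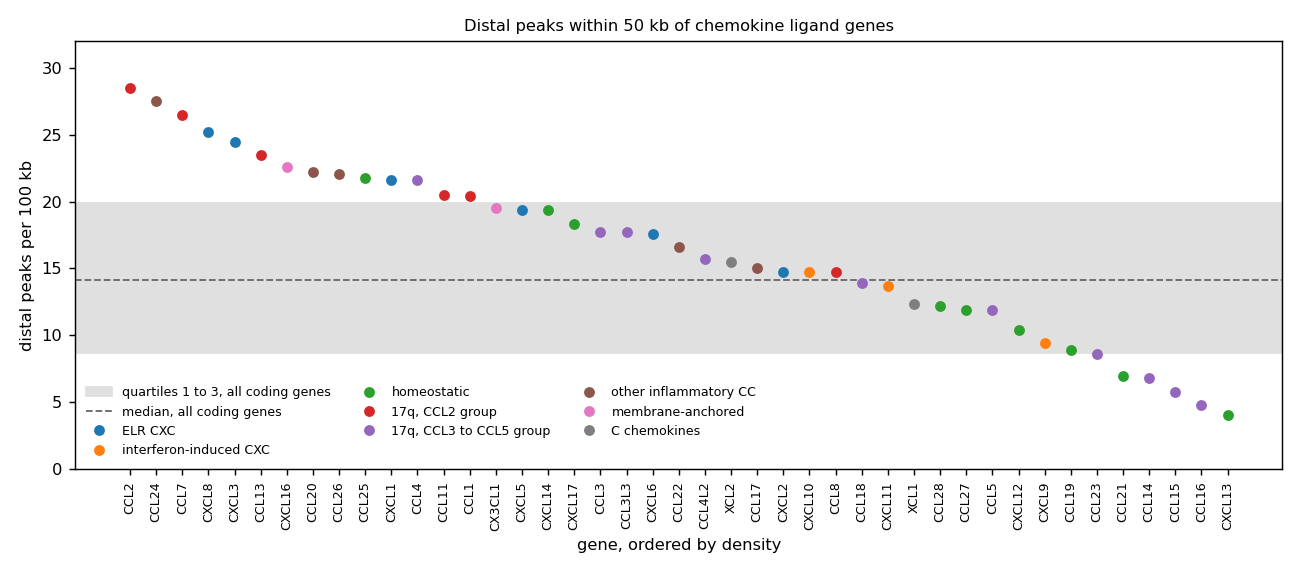
Distal peaks per 100 kb within 50 kb of each of the 43 genes, ordered by density and coloured by role; the grey band spans the quartiles of all protein-coding genes (8.66 to 19.9) and the dashed line their median (14.1). CCL2 at 28.5 is highest and CXCL13 at 4 lowest, and the genes of the 17q CCL3 to CCL5 group spread from above the band to below it.

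The receptors of these ligands are on blood cells themselves. Of 18 chemokine receptor genes, 17 (94.4%, against 83.4% of all genes) had an end peak, the exception being CCR9. Their median of 12.9-fold was below the 44.6 of all genes. CCR1, a receptor of CCL3 and CCL5, had 59.3-fold, XCR1, the receptor of the C chemokines, 50.2-fold, and CXCR2, the ELR CXC receptor, 39.1-fold. CXCR4, by which progenitors sense CXCL12, had 12.6-fold at an end, and 98.6% of the gene lay under peaks. Around the receptor genes the median distal density was 22.2 per 100 kb, and 12 of 18 exceeded the upper quartile of all genes. Of 5 atypical receptors, which bind chemokines without classical signalling, 3 (60%, against 83.4% of all genes) had a summit at an end. CCRL2 had 70.9-fold, ACKR1 26.2-fold and ACKR3 3.46-fold, and the median over all 5 was 3.46-fold, below the 44.6 of all genes.

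NF-kappaB factors and their inhibitors, which control many inflammatory chemokine genes, all had summits at their ends (11 of 11, against 83.4% of all genes), with a median of 124-fold against 44.6 and a range from 54.4-fold at NFKBIZ to 275-fold at NFKBIB. RELA had 128-fold, NFKB2 193-fold and the feedback inhibitor NFKBIA 124-fold, each above every chemokine ligand gene.

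Chemokine ligands are also made by mature and stromal cells, so markers of those were read in the same peak set. A summit at an end was present for 5 of 5 monocyte and macrophage markers (6.74-fold at FCGR3A to 53.2-fold at LYZ), 4 of 5 T and NK markers (CD3E 75.0-fold, CD3G none) and 4 of 5 endothelial markers (PECAM1 82.9-fold, CDH5 none). Of 5 stromal markers 3 had one (COL1A1 60.6-fold, COL3A1 and DCN none), and of the 4 pluripotency markers that matched a gene 3 had one, the highest at 17.6-fold (SOX2). These shares lie near or below the 83.4% of all genes, apart from the 5 of 5, and the medians of the lists, from 2.17-fold (pluripotency) to 33.7-fold (T and NK), were below the 44.6 of all genes. The share of any such cells in the accessibility of chemokine ligand genes was not tested.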

How the data were processed

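ATAC-seq libraries used 50000 cells, 45 minutes of transposition and 75-nucleotide paired reads, as the labels' protocols state. Per the submitters' processing notes the tools were Bowtie2 2.2.8, Picard 2.2.4 and Trim Galore 0.6.5, with GRCh38.p13 and hg38 as builds; MACS 2.1.0 and GENCODE 36 appear in the peak names. Their order, filters, read shifting and the pooled libraries are not given in the sources used here. The deposited list gives a fold enrichment (linear ratio), −log10 p-values and q-values and a score for each of 308732 peaks; the score and q-values were not used. Fold and p match a constant background of 93.5, with 100% of 243143 pileups under 1000 whole to within 0.1; regional copy number is thus not corrected.

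Genes came from RefSeq on GRCh38.p14, whose chromosome coordinates are those of GRCh38. Of 19974 protein-coding entries with a chromosome 1 to 22 or X label, those on alternate scaffolds were removed, which left 19839. The table has no strand; starts came from RefSeq promoter windows, present for 31 of the 43 genes (not CCL2, CCL4, CCL4L2, CCL5, CCL11, CCL14, CCL16, CCL17, CCL21, CX3CL1, CXCL16 or XCL1). Summits within 1 kb of either end, peaks over the gene (at least 1 bp) and distal summits within 50 kb were counted. Clusters join members under 500 kb apart. Counting was checked against brute force and tested on simulated data. Python 3.11.15, numpy 2.4.6, pandas 2.3.3, scipy 1.17.1, biopython 1.88 and matplotlib 3.10.9 were used.

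The members, roles and lists were chosen with earlier results of these data known. Fully described are the cluster genes, the 10 genes highest at an end, the 10 densest in distal peaks and each cluster's highest distal peak; genes without a peak are named only. Other values were chosen after they were seen. Samples were grouped by line, treatment and day, and no comparison between groups could be made. Alternatives are given at the close.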

Additional observations from a re-analysis of the deposited data

How the results depend on the processing

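No paired analysis was possible because no column of the peak set belongs to a library. The count of 35 genes with a summit at an end (all genes 83.4%) ran from 29 with the more significant 50% of peaks (75.9%) to 39 with 2.5 kb windows (90.8%) or any overlap (87.9%), and was 31 of 39 without CCL3, CCL4, CCL3L3 and CCL4L2; with listed 5′ ends only it was 23 of 31 (81.7%). The median fold at an end (7.40; all genes 44.6) was 3.95 with 0.5 kb windows (28.9), 18 with 2.5 kb (56.1), 11.0 with any overlap (57.1), 5.54 at listed 5′ ends (56.2) and 5.23 without those 4 genes (44.6). It was 11.0 in genes of at most 10 kb (13.9) and 3.51 in the lowest 25% of promoter GC (3.62); the last 3 settings were chosen after seeing the data. Genes overlapped by a peak (38 of 43) numbered 24 with the summit inside, where the share of all genes was 84.5%, and 10 at 50% coverage (12.2%). With the more significant 50% of peaks the distal median was 9.82 per 100 kb (all genes 6.69). That setting gave 21.4%, 5.48%, 20.4% and 11.6% coverage and 14.2, 8.16, 15.9 and 10.6 peaks per 100 kb in the CXCL1 to CXCL8, CXCL9 to CXCL11, CCL2 and CCL5 clusters. Coverage without flanks was 23.9%, 14.7%, 11.4% and 15.7% (all genes 12.7%), and with 100 kb 22.6%, 9.59%, 19.8% and 12.8%; without flanks the density was 15.7 for CCL2 and 23 for CXCL9 to CXCL11 (all genes 14.6), which put the latter above the median. Fewer peaks or other sequence enter by construction. Depth limits the weakest peaks: at 1.69-fold (CXCL17) the interval is 1.44 to 1.98.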
